A study of Mus musculus with 12 samples.

Results

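The core circadian clock genes were examined in whole lungs of 21-day-old mice that lacked miR-30a. The genes were Arntl, Clock, Npas2, Per2, Per3, Cry1, Cry2, Nr1d1, Nr1d2 and Dbp, taken by their gene symbols, and they made up 10 of the 55487 genes of the count table. The rule used symbols only, but the genes were proposed with earlier results of these data known. All mice carried a germline deletion of Mir30a on C57BL/6J (miR-30a-/-), so the microRNA was missing from every cell type and in the controls as well, and no wild-type lung was part of these libraries. The 4 groups were males in room air, females in room air, males after hyperoxia and females after hyperoxia, with 3 lungs each. Hyperoxia was 95% oxygen on postnatal days 1 to 5, followed by recovery in room air until collection on postnatal day 21. Lungs were perfused and frozen whole, and total RNA was sequenced after removal of ribosomal RNA. A lung is named below by its group and the animal number of its label, for example room air female 2. The time of day at collection and the light cycle are not given in the sources used here, so the lungs could not be ordered by clock time, and exposure and clock state are described side by side. In a bulk lung sample, fewer cells of a type and less RNA per cell cannot be told apart.

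The circadian clock is a feedback loop of transcription that runs in almost every cell, the lung included. ARNTL (also called BMAL1) pairs with CLOCK or its relative NPAS2 and switches on genes with an E-box in their control regions. Among these targets are the PER and CRY proteins, which come back to block the activators, and the nuclear receptors NR1D1 and NR1D2 (REV-ERB alpha and beta), which repress Arntl. DBP, an output of the loop, acts on D-box elements such as those of the Per genes. In mouse tissues the RNA of Arntl and Npas2 therefore runs roughly opposite in time to that of Nr1d1 and Dbp, with the Per and Cry RNAs following at later phases.

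Short elements through which this loop is known to act were searched in the promoters, and the stretches that hold a match are shown. RefSeq promoter windows (250 bases before to 50 after a start, build GRCm38.p6) were at hand for 9 of the 10 genes, in 12 windows; Per2 was not matched. Each stretch is written 5′ to 3′ on the strand of the gene, and capitals mark the motif. The E-box was searched as CACGTG on either strand and stood in the Cry1 promoter. Its variant was searched as CACGTT, which appears as AACGTG where it lies on the opposite strand, and stood in the promoters of Cry1, Cry2 and Nr1d1.
Cry1, chr10:85185079-85185163, minus strand: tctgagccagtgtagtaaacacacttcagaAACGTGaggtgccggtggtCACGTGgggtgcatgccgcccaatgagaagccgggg
Cry2, chr2:92434200-92434265, minus strand: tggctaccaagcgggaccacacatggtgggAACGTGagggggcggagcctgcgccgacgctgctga
Nr1d1, chr11:98775378-98775435, minus strand: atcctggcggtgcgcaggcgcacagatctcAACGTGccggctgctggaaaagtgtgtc
The D-box, searched as TTATGTAA and TTACGTAA, occurred at 2 places in the Per3 promoter.
Per3, chr4:151044786-151044900, minus strand: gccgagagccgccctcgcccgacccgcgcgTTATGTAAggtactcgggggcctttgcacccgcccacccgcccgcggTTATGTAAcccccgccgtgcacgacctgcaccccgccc
The element read by REV-ERB receptors, searched as TAGGTCA, lay just after the annotated start of Arntl.
Arntl, chr7:113207531-113207557, plus strand: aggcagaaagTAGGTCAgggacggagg
Of 32851 mouse promoter windows of the same length, 7.15% held the E-box on either strand, 4.68% the variant, 1.06% a D-box and 2.61% the REV-ERB element. Of the 12 windows of the clock genes, 1 held the E-box, 3 the variant, 1 a D-box and 1 the REV-ERB element, so the E-box was about as frequent as in all promoters. The windows of Clock, Npas2, Nr1d2 and Dbp held none of these letters. The cyclic AMP response element TGACGTCA was in 1.79% of all windows and in none of the 12. These matches describe letters in short windows and say nothing about binding in these lungs.

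Libraries held 8763033 to 16741694 counts (median 11942546), and 3 counts corresponded to 0.191 to 0.327 CPM (counts divided by the scaled library total, after upper-quartile normalization). Mir30a had 0 counts in all 12 libraries, Xist and Ddx3y matched the labelled sex in each mouse, and all 21 lung marker genes had at least 10 counts in every lung. All genes of the skeletal muscle, cardiac muscle, brown fat, thymus and red cell lists did so too, so that bar does not set lung apart from other tissue. Room air male 1 stood apart, with 1939 CPM over 11 skeletal muscle genes against 103 to 148 in the other 11 lungs. The share of counts on 1492 olfactory and vomeronasal receptor genes ran from 0.410% to 0.947% and served as a measure of background reads. This takes the genes as not used by lung cells. The paper, however, lists olfactory receptor genes among neuroendocrine cell genes that were upregulated in hyperoxia-exposed miR-30a-/- females. Any lung expression of such genes would count as background here. Background made up an estimated 1.32% to 5.63% of the counts of Nr1d1 and, at the other end, 18.9% to 43.7% of those of Arntl. All 10 genes passed the filter on low counts, with 154 counts as the lowest value of any gene in any lung (Cry1 in hyperoxia male 2).

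Per kilobase of exon, Nr1d1 was the most abundant clock RNA, with 35.8 ± 11.1 CPM per kb (SD, n = 12 lungs). Per2 (15.7 ± 4.24) and Nr1d2 (15.2 ± 4.16) came next and did not differ in level beyond their spread, as Per2 was higher in 6 of 12 lungs (exact sign-flip permutation test, two-sided, adjusted p = 0.680). Per3 followed at 13.2 ± 3.35 CPM per kb, below Nr1d2 in 11 of 12 lungs (exact permutation, adjusted p = 0.00527). Dbp (9.36 ± 3.15) and Cry2 (8.97 ± 1.65) were again not separated (exact permutation, adjusted p = 0.839). Clock stood at 7.14 ± 1.37 CPM per kb and Cry1 at 4.90 ± 0.638. Npas2 (4.21 ± 0.575) and Arntl (3.94 ± 0.437) closed the order and were not separated (exact permutation, adjusted p = 0.102). The 9 comparisons of neighbours in this order were adjusted together.

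The first question was whether neonatal hyperoxia left a mark on the clock genes at day 21. In females, none of the 10 genes was called for hyperoxia against room air, where a call needed an adjusted p under 0.05 over all 45828 genes tested (edgeR quasi-likelihood test) and a fold change over 1.5. The background was low, since 0.00218% of all genes tested were called in this comparison. None had exposure groups apart in females either (10.8% of all genes were higher and 6.42% lower without overlap). In males 0 of the 10 genes were called as well (0% of all genes). With both sexes averaged there were again 0 calls among the clock genes (0.0415% of all genes). The summed level of 5 red cell genes was 5118 to 7881 CPM in the 6 room air lungs and 1247 to 4650 CPM in the 6 hyperoxia lungs without overlap. That of 7 cardiac muscle genes was 216 to 242 CPM in room air females and 109 to 139 CPM in hyperoxia females, without overlap, and 107 to 261 CPM in room air males and 113 to 115 CPM in hyperoxia males. The part of this RNA in the values below was not tested.

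**Figure D1:**
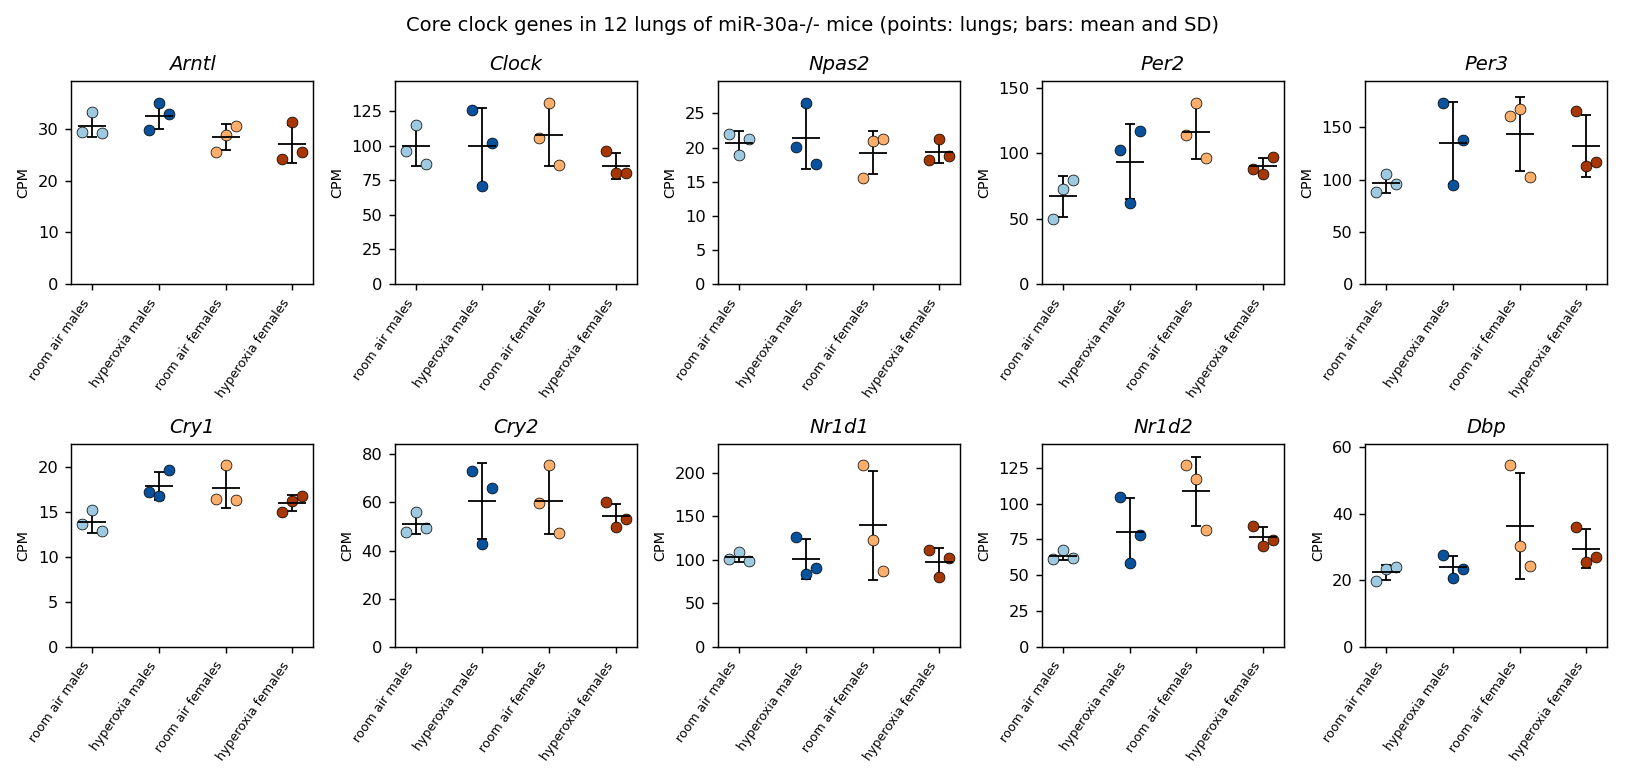
Abundance of the 10 core clock genes in CPM (vertical axes, each starting at 0) in the 4 groups of sex and exposure; each point is a lung, and the bars give the mean and SD of 3 lungs. Males in room air have the lowest mean for Per2, Cry1, Nr1d2 and Dbp and do not overlap the females in room air, and room air female 2 stands highest for Nr1d1 (208.5 CPM) and Dbp (54.5 CPM).

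The activators overlapped between the exposures. Arntl was 29.2, 29.4 and 33.2 CPM in the room air males and 29.8, 32.9 and 35.0 CPM in the hyperoxia males. In females it was 25.6, 28.9 and 30.6 CPM in room air and 24.2, 25.6 and 31.3 CPM after hyperoxia. These groups overlapped in both sexes, with a log2 fold change of -0.07 in females (95% interval -0.37 to 0.23) and 0.09 in males (-0.21 to 0.39). Clock, the partner of ARNTL, ranged from 70.5 to 131 CPM over the 12 lungs, and its log2 fold change was -0.33 (SE 0.22) in females and 0.0029 (SE 0.22) in males. The value in females turned to 0.073 when the receptor share entered the fit. Npas2, the relative of Clock, ranged from 15.6 to 26.6 CPM, with log2 fold changes of 0.0091 in females and 0.04 in males (SE 0.16 in each).

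The Per and Cry genes, which encode the repressors of the loop, had opposite signs in the sexes as fitted. The sign in females turned for Per3 and Cry2 when the receptor share entered the fit (0.35 and 0.23) and with background subtracted (0.079 and 0.00356). Per2 was 96.8, 114 and 139 CPM in room air females and 84.5, 88.4 and 97.3 CPM after hyperoxia. In males it was 49.6, 73.0 and 79.4 CPM in room air and 61.7, 103 and 117 CPM after hyperoxia. On average, Per2 was lowest in room air males (67.3 CPM) and highest in room air females (117 CPM), with the hyperoxia groups between (93.7 CPM in males and 90.1 CPM in females). The log2 fold change of Per2 was -0.37 (SE 0.23) in females and 0.48 (SE 0.23) in males, and neither passed the test (edgeR, adjusted p = 0.452 and 1.00).

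Per3 was 103, 161 and 167 CPM in room air females against 113, 117 and 166 CPM after hyperoxia. In males it was 88.1, 95.6 and 106 CPM in room air against 95.2, 137 and 174 CPM after hyperoxia. Both pairs of groups overlapped. The log2 fold change of Per3 was -0.12 (SE 0.24) in females and 0.49 (SE 0.24) in males.

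With the counts as deposited, Cry1 was the one clock gene whose exposure groups did not overlap in a sex. In males it was 12.8, 13.6 and 15.2 CPM in room air and 16.8, 17.2 and 19.7 CPM after hyperoxia, a log2 fold change of 0.37 (SE 0.15; edgeR, unadjusted p = 0.0173, adjusted p = 1.00). Of all genes tested, 2.73% were higher and 3.89% lower without overlap in the same comparison, and no clock gene was lower in this way. With background subtracted, Per3 was higher without overlap in males besides Cry1 (3.75% of all genes were higher), and Nr1d2 was lower without overlap in females (7.13% of all genes were lower). In females Cry1 was 16.4, 16.5 and 20.2 CPM in room air and 14.96, 16.2 and 16.8 CPM after hyperoxia, with a log2 fold change of -0.15 (SE 0.14). Cry2, its paralog, ranged from 42.9 to 75.4 CPM over all lungs, and its log2 fold change was -0.17 in females and 0.25 in males (SE 0.20 in each).

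The REV-ERB receptors had the most negative fold changes in females. Nr1d1 was 87.1, 123 and 208.5 CPM in room air females and 79.8, 102 and 111 CPM after hyperoxia, a log2 fold change of -0.52 (SE 0.25; edgeR, adjusted p = 0.397). Room air female 2 alone was far above the other 11 lungs. Without that lung the log2 fold change of Nr1d1 was -0.10, and in males it was -0.03 (SE 0.25) with all lungs. Nr1d2 was 81.6, 117 and 127 CPM in room air females and 70.3, 74.4 and 84.8 CPM after hyperoxia, a log2 fold change of -0.51 (SE 0.21; edgeR, adjusted p = 0.368). The single overlap was between the lowest room air female and the highest hyperoxia female. In males Nr1d2 was 61.4, 62.2 and 67.6 CPM in room air and 58.5, 78.3 and 105 CPM after hyperoxia, a log2 fold change of 0.34 (SE 0.21).

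Dbp, the output gene, was 24.2, 30.2 and 54.5 CPM in room air females and 25.3, 26.9 and 36.1 CPM after hyperoxia. Its log2 fold change was -0.30 (SE 0.21) in females and turned to 0.12 without room air female 2. In males Dbp was 19.8, 23.2 and 24.1 CPM in room air and 20.8, 23.3 and 27.5 CPM after hyperoxia, a log2 fold change of 0.10 (SE 0.21).

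**Figure D2:**
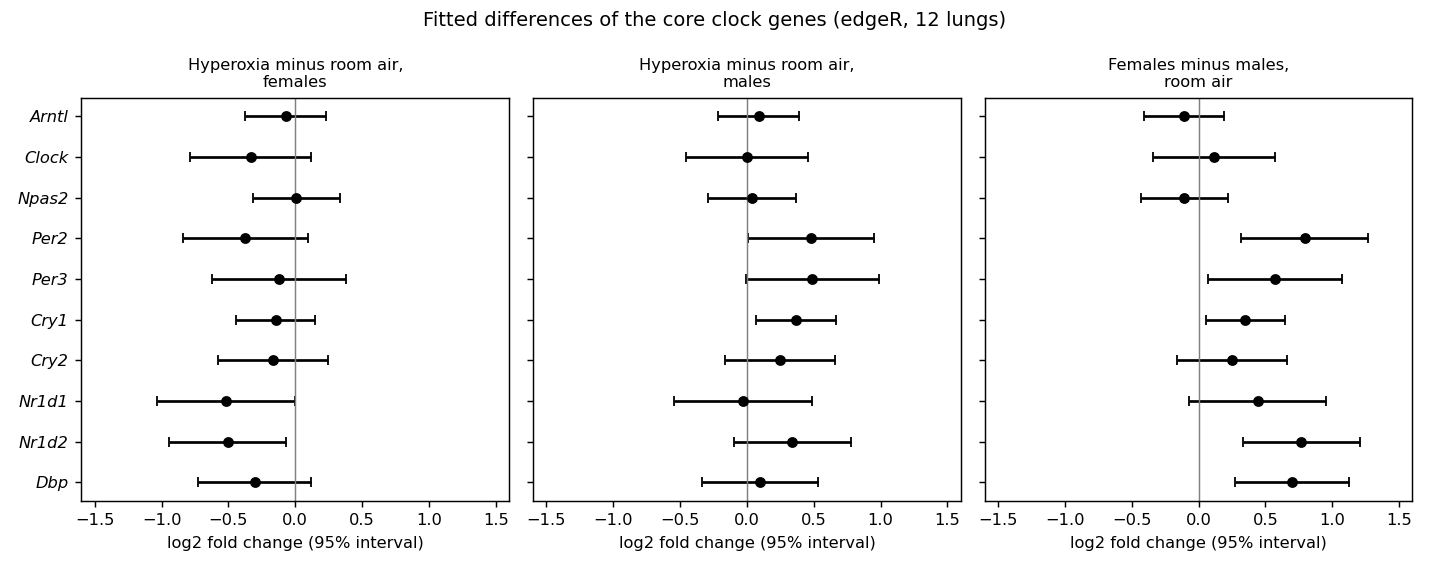
Fitted log2 fold changes (points) with 95% intervals (bars) of the 10 clock genes for hyperoxia minus room air in females (left), in males (middle) and for females minus males in room air (right). In females 9 of 10 points lie below 0, in males 9 of 10 lie above 0, and in the right panel 8 of 10 lie above 0.

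As a group, 9 of the 10 genes had a negative fold change in females, with a median log2 fold change of -0.23 against 0.11 over all genes tested, of which 60.8% were above 0. In males 9 of 10 were positive, with a median of 0.17 against -0.01 over all genes, of which 48% were above 0. At an unadjusted p under 0.05 there were 2 genes in females, Nr1d1 and Nr1d2, where 12.6% of all genes reached that level. In males there were also 2, Per2 and Cry1, against 2.7% of all genes. With 10 genes, the count in females was close to that background. All 10 fold changes were under 1.5-fold in either sex. Room air females were sequenced to 12497449 to 16741694 counts and hyperoxia females to 10255870 to 11584337 counts, without overlap. The receptor share was 0.410% to 0.740% and 0.670% to 0.849% in these groups. With that share in the fit, Clock (0.073), Per3 (0.35) and Cry2 (0.23) turned positive in females and Npas2 (-0.13) turned negative. The part of depth was not tested.

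Whether females and males responded unequally was tested directly as an interaction. None of the 10 genes was called (0% of all genes), and the smallest adjusted p was 0.578. All 10 interaction terms were negative, where 58.6% of all genes had a positive one. At an unadjusted p under 0.05 there were 3 genes (8.46% of all genes), namely Per2 with -0.85 (SE 0.33), Nr1d2 with -0.85 (SE 0.30) and Cry1 with -0.52 (SE 0.20) on the log2 scale. With a factor of unwanted variation estimated from the residuals (RUVr) Nr1d2 alone was called, at -0.79 (adjusted p = 5.61e-06), in a fit that called 1519 genes higher and 582 lower of 45828, against 0 without the factor. With the share of receptor reads as a covariate 0 genes were called, and the terms of Clock, Per3 and Cry2 changed sign. Averaged over the sexes, the log2 fold changes for hyperoxia lay between -0.27 (Nr1d1) and 0.18 (Per3), with 0 genes at an unadjusted p under 0.05 by edgeR (5.2% of all genes).

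The next comparison was between females and males. Averaged over the exposures, 0 of the 10 genes were called for females against males (1.22% of all genes were), and Dbp came nearest with a log2 difference of 0.50 (SE 0.15; edgeR, adjusted p = 0.110). With Dbp, Per2 (0.37) and Nr1d2 (0.35) also had an unadjusted p under 0.05 by edgeR, 3 of 10 genes against 6.88% of all genes. The comparison was then split into room air and hyperoxia, a choice made after the values were seen. In room air none was called (0.386% of all genes). At an unadjusted p under 0.05, 5 of the 10 genes were higher in females (12.7% of all genes reached that level in either direction). These were Per2 at 0.79 (SE 0.23, adjusted p = 0.171), Nr1d2 at 0.77 (SE 0.21, adjusted p = 0.144), Dbp at 0.70 (SE 0.21, adjusted p = 0.185), Per3 at 0.57 (SE 0.24) and Cry1 at 0.35 (SE 0.14) by edgeR. All 3 room air females were above all 3 room air males for Per2, Cry1, Nr1d2 and Dbp, 4 of the 10 genes, where 5.6% of all genes were higher and 10.4% lower in this way. With background subtracted Per3 joined them (6.89% of all genes were higher). The median log2 difference of the 10 genes was 0.39, with 8 of 10 above 0, against -0.10 over all genes, of which 40.1% were above 0.

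The room air groups also differed in other measures of the libraries. The room air females were sequenced to 12497449 to 16741694 counts and the room air males to 11722513 to 11966653 counts. The receptor share was 0.410% to 0.740% in the former and 0.643% to 0.901% in the latter. The summed level of 5 thymus genes was 28.8 to 35.6 CPM in room air females and 36.1 to 49.4 CPM in room air males, without overlap. A single predicted gene, Gm10800, took 6.04% to 16.6% of the counts in room air females and 15.04% to 21.6% in room air males. The part of depth, thymus genes and Gm10800 in the sex differences was not tested. With the receptor share as a covariate in the fit, the log2 difference was 0.46 for Per2, 0.38 for Nr1d2, 0.41 for Dbp and 0.08 for Per3. With background reads subtracted it was 0.68, 0.63, 0.63 and 0.44 in the same order. Nr1d2 was called under DESeq2 (adjusted p = 0.0421), and Per2 and Nr1d2 were called with RUVr. Over all 45828 genes, 201 were called higher and 103 lower under DESeq2, and 600 and 1671 with 1 RUVr factor. Single lungs also decided calls. Without room air female 6, Nr1d2 (0.95) and Dbp (0.93) were called. Without hyperoxia male 2, Per2 (0.80) and Nr1d2 (0.78) were called, and without hyperoxia male 1 Nr1d2 (0.78) was. Over all genes these 3 fits called 240, 235 and 213 genes higher and 376, 156 and 180 lower, against 82 and 95 with all lungs. Without room air female 2 the difference of Dbp was 0.29 and that of Nr1d1 0.04, against 0.44 with all lungs. Without room air male 1, the library with skeletal muscle RNA, Per2 was at 0.62 and Nr1d2 at 0.75.

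After hyperoxia the sex differences of the clock genes were small. None was called (0.696% of all genes), 0 had an unadjusted p under 0.05 by edgeR (4.69% of all genes), and the log2 differences lay between -0.27 (Arntl) and 0.30 (Dbp). Per2 differed by -0.06 (95% interval -0.53 to 0.41) and Nr1d2 by -0.08 (-0.51 to 0.36). Cry1 was lower in females without overlap (3.09% of all genes were, and 5.78% were higher), but only by the distance between a lowest male value and a highest female value of 16.8 CPM each. With background subtracted Cry1 overlapped, and Dbp was higher in females without overlap (5.52% of all genes were higher).

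To view the clock as a whole in each lung, a clock state was computed as a description. It is the mean log2 deviation, from the average of the 12 lungs, of 5 genes known as targets or output of the activators (Nr1d1, Nr1d2, Per2, Per3 and Dbp) minus that of the 3 activators (Arntl, Clock and Npas2). Room air female 2 was highest at 0.82, followed by hyperoxia female 2 (0.34), room air female 5 (0.24), hyperoxia female 5 (0.17) and hyperoxia male 1 (0.14). In the middle were hyperoxia male 3 at -0.0019, room air female 6 at -0.10 and hyperoxia female 4 at -0.14. The lowest states were those of room air male 5 (-0.21), room air male 4 (-0.30), hyperoxia male 2 (-0.48) and room air male 1 (-0.49). Exposures were thus mixed along this order, whereas all 3 room air males fell among its 4 lowest lungs, which did not hold for the single ratios given below.

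**Figure D3:**
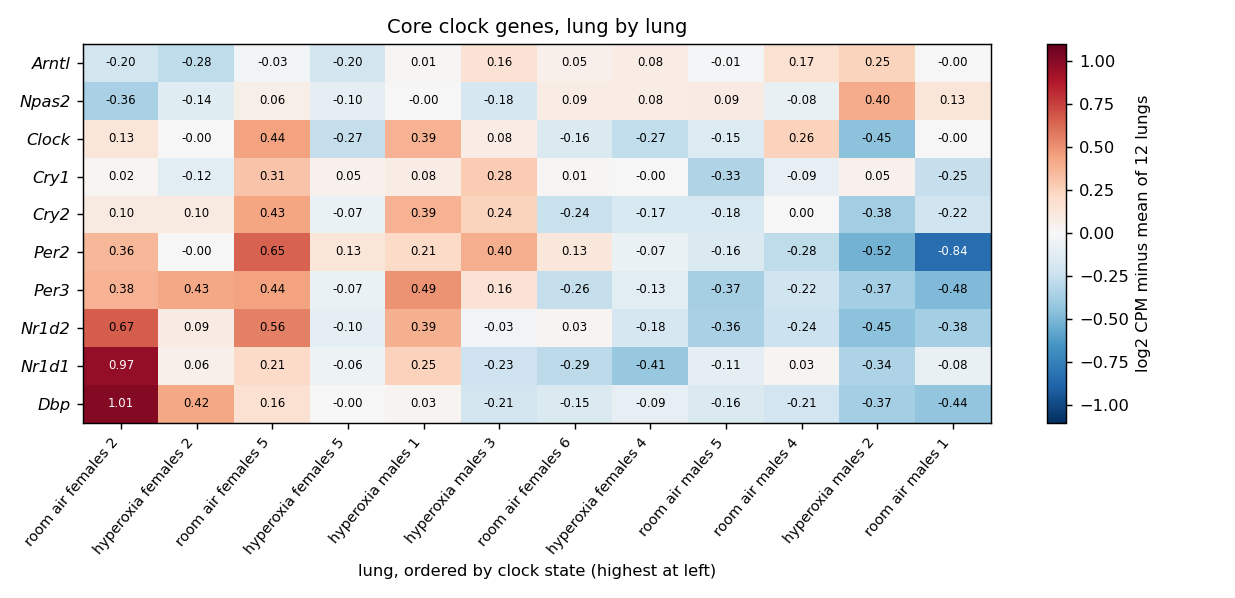
Log2 CPM of the 10 clock genes (rows) in each of the 12 lungs (columns, ordered by clock state from the highest at the left), as deviation from the mean of the gene over the 12 lungs; red is above and blue below the mean. Dbp and Nr1d1 reach 1.01 and 0.97 in room air female 2 at the left, where Arntl and Npas2 are at -0.20 and -0.36, and Npas2 is at 0.40 in hyperoxia male 2.

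By group, the clock state was -0.33 ± 0.14 in room air males, -0.11 ± 0.32 in hyperoxia males, 0.32 ± 0.47 in room air females and 0.12 ± 0.24 in hyperoxia females (SD, n = 3 each). The spread within the room air females was larger than the distance between the exposures in either sex. The 3 room air males had the smallest spread. Ratios to Arntl, which need no scaling between libraries, gave the room air males a less low place. The log2 ratio of Dbp to Arntl was 1.09, 0.06 and -0.34 in room air females and -0.28, -0.51 and -0.56 in room air males. After hyperoxia it was 0.57, 0.07 and -0.30 in females and -0.11, -0.49 and -0.75 in males. Room air male 5 (-0.28) thus stood above room air female 6 and hyperoxia female 4, and the mean of the males was -0.45 in both exposures. The log2 ratio of Nr1d1 to Arntl was 1.71, 1.75 and 1.77 in room air males, in the middle of the order, with room air female 6 (1.51), hyperoxia male 3 (1.46), hyperoxia female 4 (1.35) and hyperoxia male 2 (1.26) below them and room air female 2 highest at 3.02.

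Across the 12 lungs, the sign of each gene's relation to Arntl was examined for the other 9 genes. Dbp ran opposite to Arntl, with Pearson's r = -0.71 (permutation p = 0.00594, adjusted p = 0.0535 over 9 relations) and Spearman's rho = -0.74 (permutation p = 0.00763, adjusted p = 0.0687). Neither value passed after adjustment with the counts as deposited. Among 35904 genes with at least 10 counts in every lung, 0.184% had a lower r with Arntl. Without hyperoxia male 2 and hyperoxia female 2, the 2 lungs with the most extreme Arntl levels, r for Dbp was -0.64 (permutation p = 0.0387). With TMM in place of upper-quartile scaling it was -0.55 (permutation p = 0.0601, adjusted p = 0.541). With background subtracted it was -0.74 and passed after adjustment (permutation, adjusted p = 0.0241; rho = -0.76, adjusted p = 0.0465).

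**Figure D4:**
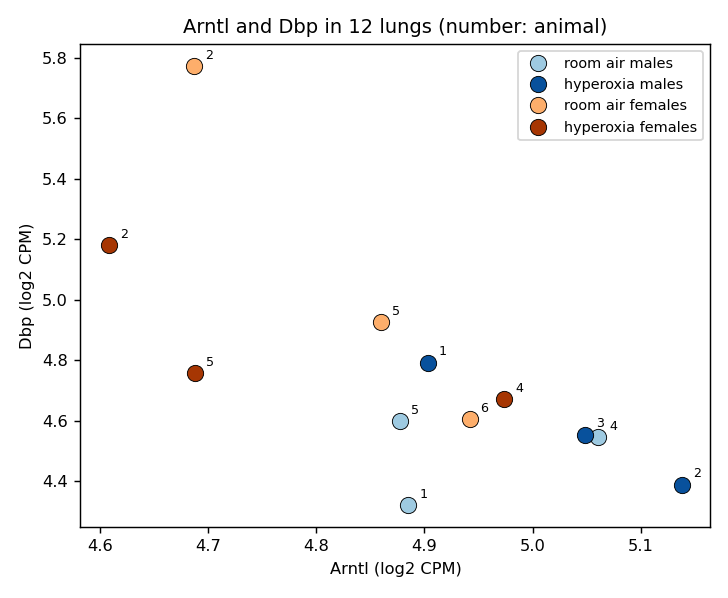
Dbp against Arntl, both in log2 CPM, in the 12 lungs, coloured by group and numbered by animal. Lungs with more Arntl hold less Dbp (r = -0.71), from room air female 2 at the upper left to hyperoxia male 2 at the lower right.

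The REV-ERB genes followed in the same direction. Nr1d1 had r = -0.56 (permutation p = 0.0561, adjusted p = 0.168; rho = -0.63, p = 0.0335, adjusted p = 0.151) and Nr1d2 had r = -0.48 (permutation p = 0.116, adjusted p = 0.209; rho = -0.56, p = 0.0634, adjusted p = 0.190). Npas2 ran with Arntl, with r = 0.57 (permutation p = 0.0501, adjusted p = 0.168; rho = 0.41, p = 0.184, adjusted p = 0.329), and fell to 0.32 without the same 2 lungs. Per3 had r = -0.49 and Per2 r = -0.30, and Cry2 (-0.26), Clock (-0.13) and Cry1 (0.17) were closer to 0. With TMM the relations were weaker for Nr1d1 (-0.39), Nr1d2 (-0.24), Npas2 (0.44), Per3 (-0.24) and Per2 (-0.09). With upper-quartile scaling, for Per3, Per2, Cry2, Clock and Cry1 the permutation p ran from 0.113 to 0.682 (adjusted 0.209 to 0.682), and rho ran from -0.45 to 0.17. When the group means were removed, so that only lungs of the same sex and exposure were compared, r was -0.75 for Nr1d1, -0.70 for Dbp and -0.64 for Nr1d2 (exact permutation within groups, p = 0.0139, 0.0262 and 0.0347; adjusted p = 0.104 for each). With TMM these within-group values were -0.57 for Nr1d1, -0.51 for Dbp and -0.29 for Nr1d2 (exact permutation within groups, p = 0.0664, 0.171 and 0.309), so none was under 0.05.

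The genes also differed in how much they varied between lungs of the same group. The dispersion of Dbp was 3.63 times the trend for genes of its abundance, more than for 99.1% of the genes tested, and that of Nr1d1 was 1.93 times the trend (89.5%). Per2 followed at 1.55 times. The SD of Dbp was 16.1 CPM in room air females and 2.24 to 5.83 CPM in the other groups. That of Nr1d1 was 62.4 CPM in room air females and 5.40 to 22.9 CPM in the others. Room air female 2 was the highest lung for both genes, and the dispersions without it are not given here. Arntl (0.526) and Cry1 (0.474) were less variable than the trend, with 17.5% and 14.2% of genes below them. In SD of log2 CPM within groups, the span was from 0.13 for Cry1 and 0.14 for Arntl to 0.38 for Nr1d1. The median share of background reads was 31.5% for Arntl and 25.5% for Cry1, but also 28.6% for Npas2, whose dispersion was 1.28 times the trend. The part of background in this spread was not tested.

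The receptor share moved with many genes, most of the clock genes among them. Across the 12 lungs, 7 of the 10 genes had a Pearson's r with that share at a permutation p under 0.05, also after adjustment over the 10. Many other genes did as well, since 52.3% of 35904 genes with at least 10 counts in every lung had an r of at least the same size as the weakest of the 7 (Dbp), and 23.5% had one as negative. The most negative r was -0.89 for Nr1d2 (permutation p = 0.0002, adjusted p = 0.00100; rho = -0.83, p = 0.00161, adjusted p = 0.00482), and it was -0.84 without room air female 5 and hyperoxia male 1, the most extreme lungs. Clock (-0.86), Cry2 (-0.85), Per3 (-0.81), Per2 (-0.74), Nr1d1 (-0.69) and Dbp (-0.61) were also negative, with an adjusted p of 0.00100 to 0.0476 for r and a rho between -0.86 and -0.64 (permutation, adjusted p = 0.00482 to 0.0386). Arntl (0.27), Npas2 (0.46) and Cry1 (-0.48) did not pass. The share is itself a part of the library total, and the CPM values share that total. Within groups the r of Nr1d2 was -0.89, that of Clock -0.93 and that of Per3 -0.93 (exact permutation within groups, adjusted p = 0.0270, 0.0206 and 0.0154), and that of Cry2 was -0.92 (adjusted p = 0.0206, exact). Within groups Per2 (-0.70), Nr1d1 (-0.58) and Dbp (-0.53) did not pass (exact permutation, adjusted p = 0.148, 0.298 and 0.324). The clock state with background subtracted was 0.82 in room air female 2 and -0.48 in hyperoxia male 2, as before, but rose to 0.35 in hyperoxia female 5 and dropped to 0.11 in room air female 5 and 0.04 in hyperoxia male 1. Its group means were then 0.28 ± 0.48 in room air females, 0.21 ± 0.28 in hyperoxia females, -0.34 ± 0.12 in room air males and -0.15 ± 0.29 in hyperoxia males (SD, n = 3 each).

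Other genes of the clock were described through a list of 23 genes. None of the 23 was called in any of these comparisons by edgeR. Per1, a further repressor, was 200, 214 and 319 CPM in room air females and 84.7, 154 and 160 CPM in room air males, a log2 difference of 0.88 (SE 0.27; edgeR, adjusted p = 0.213). After hyperoxia it was 145, 147 and 217 CPM in females, a log2 fold change of -0.53 (SE 0.27), and 114, 159 and 194 CPM in males, at 0.23 (SE 0.27). Ciart, a repressor driven by the loop, differed by 0.41 (SE 0.16) between the sexes in room air, with fold changes for hyperoxia of -0.15 in females and 0.27 in males (SE 0.16 in each). Per1 and Ciart had the same signs as Per2 in these 3 comparisons. For hyperoxia averaged over the sexes Per1 was at -0.15 and Per2 at 0.05, and for the sexes after hyperoxia they were at 0.12 and -0.06. In room air, 9 of the 23 genes were higher in females at an unadjusted p under 0.05 by edgeR (12.7% of all genes in either direction), and 4 did not overlap (Per1, Hlf, Usp2 and Nampt; 5.6% of all genes). For hyperoxia, 3 of the 23 were lower in females at that level (12.6% of all genes in either direction) and 1 was higher in males (2.7%). Without overlap, 4 were lower in females (6.42% of all genes) and 1 was higher in males (2.73%).

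Nampt encodes an enzyme of NAD synthesis that is under clock control. It was 50.7, 51.5 and 67.9 CPM in room air females and 31.2, 35.4 and 38.8 CPM after hyperoxia, without overlap. The log2 fold change was -0.69 (SE 0.17) and was not called (edgeR, adjusted p = 0.219), but it was called with DESeq2 (2 genes higher and 87 lower over all genes) and with RUVr (1538 and 364 with 1 factor). Nampt also separated room air females from room air males, which were at 34.3, 35.1 and 39.5 CPM (log2 difference 0.64, SE 0.17; edgeR, adjusted p = 0.112). Averaged over the sexes, Nampt (-0.26), Fbxw11 (-0.26) and Bhlhe40 (-0.18) were among the 4 genes of the list with the smallest unadjusted p for hyperoxia, with an adjusted p of 0.927 each (edgeR).

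Signals that are known to reach the clock were read through 18 genes that answer to glucocorticoids, to growth factors and stress, or to temperature. For hyperoxia, 0 of the 18 were called in either sex by edgeR, with 9 lower at an unadjusted p under 0.05 in females (12.6% of all genes in either direction) and 2 higher in males (2.7%). Without overlap, 8 of the 18 were lower in females (6.42% of all genes), and in males 1 was higher (2.73%) and 1 lower (3.89%). Between females and males in room air, 2 of the 18 were called, both higher in females (0.386% of all genes). Hsph1, a heat shock protein, was 44.0, 44.1 and 47.2 CPM in room air females and 24.7, 25.7 and 27.7 CPM in room air males, a log2 difference of 0.79 (SE 0.15; edgeR, adjusted p = 0.00537). Dnajb1, a co-chaperone, was 46.4, 49.4 and 53.1 CPM against 23.6, 32.2 and 33.7 CPM (log2 difference 0.73, SE 0.16; edgeR, adjusted p = 0.0318). Neither pair of groups overlapped, and 14 of the 18 genes were higher in room air females without overlap (5.6% of all genes). Among them were the immediate early genes Nr4a1 (1.504), Dusp1 (1.20) and Egr1 (0.94) and the glucocorticoid target Tsc22d3 (0.90), all on the log2 scale and none called. The rest overlapped, namely the glucocorticoid targets Zbtb16 (0.20) and Fkbp5 (-0.09), and Fosb (0.02) and Cirbp (-0.20). The number of calls ran from 0 without room air male 1 to 6 without hyperoxia male 2. Hsph1 was not called without room air male 1 or 5. Dnajb1 was not called without room air male 1 or 5, room air female 2 or 5, hyperoxia male 3, or hyperoxia female 4 or 5. The room air females were thus above the room air males in Per2, Nr1d2 and Dbp, none of them called. They were also above them in 14 of the 18 genes, 2 of which were called. The part of such signals in the clock values was not tested.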

How the data were processed

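Whole-lung RNA from 12 miR-30a-/- mice was sequenced, with 3 lungs in each of 4 groups of sex and exposure. Per the labels and the methods of the study, the authors trimmed reads with Trim Galore, mapped them with STAR to mouse build mm10 (GRCm38) and counted reads per gene with featureCounts. The deposited values are raw counts, and versions and the strand setting are not given in the sources used here. A gene and an overlapping gene on the opposite strand may therefore share reads, which concerns Arntl (33 exon bases, with Gm45355), Cry2 (295, with D930015M05Rik), Nr1d1 (263, with Thra) and Dbp (539, with Sphk2). The labels name a directional library kit with removal of ribosomal RNA, and the study's methods name another kit. Nothing ties lungs to litters. The p-values measure the spread between these mice and treat them as independent, which could not be checked.

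Counts were tested with edgeR 4.0.16 (R 4.3.3) by the quasi-likelihood F test with robust dispersions, after upper-quartile normalization and filterByExpr (45828 genes kept), with all 12 lungs in 1 model. Calls needed a Benjamini-Hochberg adjusted p under 0.05 over all of these and a fold change over 1.5. Log2 CPM used a prior count of 2. Per-kilobase levels used GENCODE M21 exon lengths, found for 55227 of 55487 genes. Background was estimated from the median reads per kilobase on 1492 receptor genes. Correlations used 100000 permutations, or all 1296 arrangements within groups, and all p-values are two-sided. On data simulated for hyperoxia against room air in females (44917 genes), 154 of 200 genes changed 2-fold were recovered with 8 false calls. All fitted changes of the clock genes in that comparison were smaller than 2-fold, so this recovery does not measure the power for them. Alternatives were TMM, DESeq2 1.42.0, 2 filters on low counts, RUVr with 1 or 2 factors, the receptor share as a covariate, background subtraction, only the lungs compared, a replicate block in females, no fold threshold, and leaving out each lung. RUVr was no part of the main model because the number of factors the authors used is not stated.

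The 10 genes, the gene lists and the tests were chosen with earlier results of these data known. Named were all 10 genes, and, among 23 other clock genes, Per1, Ciart, any gene called and the 4 with the smallest unadjusted p for hyperoxia averaged over the sexes, of which 1 is not reported here. Also named were the 5 genes with the highest and the 5 with the lowest r with Arntl and with Dbp. Other genes of the lists that are named (Hlf, Usp2, Wee1, Hsph1, Dnajb1, Zbtb16, Nr4a1, Dusp1, Egr1, Tsc22d3, Fkbp5, Fosb, Cirbp) were picked after their values were seen. Background subtraction of the clock state, of the relations to Arntl and of the counts without overlap, and the sex differences within each exposure, were added after seeing the data. Promoter windows are from RefSeq (GRCm38.p6).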

Additional observations from a re-analysis of the deposited data

Results flagged for a closer look

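The response of Cry1 to hyperoxia in females minus that in males was -0.52 on the log2 scale (-0.515562 as fitted; SE 0.20; edgeR, unadjusted p = 0.0177, adjusted p = 0.578). It was picked out because every hyperoxia female lay below the mean of the room air females, while every hyperoxia male lay above the mean of the room air males, and the difference did not pass the test over all genes. In CPM, Cry1 averaged 17.7 ± 2.17 in room air females and 15.96 ± 0.918 after hyperoxia, and 13.9 ± 1.21 in room air males and 17.9 ± 1.59 after hyperoxia (SD, n = 3 each). With single lungs left out in turn, the interaction of Cry1 ran from -0.60 to -0.41.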

How the results depend on the processing

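No clock gene was called for hyperoxia in females, in males or averaged over the sexes under any alternative, each lung left out included. For the interaction, 1 gene (Nr1d2) was called with RUVr, with 1 as with 2 factors, where 1519 and 1571 genes were called higher and 582 and 613 lower over all genes, against 0 without a factor. For females against males in room air, 1 gene was called under DESeq2, 2 with 1 RUVr factor and 2 with 2 factors. With single lungs left out, that count ran from 0 to 2, and for the sexes averaged over exposures it ran from 0 to 1 (Dbp, without room air female 6). The cause was not tested. Over all genes, calls for hyperoxia in females were 0 higher and 1 lower, against 1538 and 364 with 1 RUVr factor, 2 and 87 under DESeq2, and 93 and 113 without room air female 6. For the sexes in room air, 82 genes were higher and 95 lower, against 600 and 1671 with 1 RUVr factor and 3 and 0 with at least 10 counts in every lung.

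Of 630 fold changes of the 10 genes recomputed under alternatives other than leaving out a lung, 41 changed sign, 7 gained a call and the rest kept both. With the receptor share added to the model, the sign turned for hyperoxia in females (Clock 0.073, Npas2 -0.13, Per3 0.35, Cry2 0.23) and males (Clock -0.12), the interaction (Clock 0.19, Per3 0.00457, Cry2 0.093) and hyperoxia averaged over the sexes (Arntl -0.020, Npas2 -0.035, Nr1d2 0.049, Dbp 0.00246). It also did so for the sexes averaged over exposures (Cry2 -0.10), in room air (Clock -0.29, Npas2 0.036, Cry2 -0.15) and after hyperoxia (Per2 0.036, Per3 0.089, Nr1d1 0.050, Nr1d2 0.039). With background subtracted, it did so for hyperoxia in females (Per3 0.079, Cry2 0.00356) and males (Clock -0.070), the interaction (Npas2 0.00863), and the sexes in room air (Clock -0.021) and after hyperoxia (Per2 0.034, Per3 0.0496, Nr1d1 0.051, Nr1d2 0.017). For hyperoxia in females Npas2 was at -0.032 with TMM, -0.090 under DESeq2 and -0.033 with no filter. Averaged over the sexes, Arntl was at -0.014 with TMM, -0.034 under DESeq2 and -0.00897 with no filter, and Npas2 at -0.021 under DESeq2. In males Clock was at -0.026 with 1 and with 2 RUVr factors and at -0.00995 with at least 10 counts in every lung, where the interaction of Npas2 was 0.040.

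Leaving out single lungs turned the sign of several fold changes. For hyperoxia averaged over the sexes the ranges were -0.048 to 0.045 (Arntl), -0.034 to 0.14 (Cry2), -0.21 to 0.11 (Dbp), -0.061 to 0.087 (Npas2), -0.20 to 0.011 (Nr1d2) and -0.039 to 0.17 (Per2). In females they were -0.32 to 0.019 (Cry2), -0.53 to 0.12 (Dbp), -0.12 to 0.076 (Npas2) and -0.33 to 0.00341 (Per3). In males they were -0.20 to 0.21 (Clock), -0.013 to 0.19 (Dbp), -0.13 to 0.16 (Npas2), -0.23 to 0.091 (Nr1d1) and -0.00399 to 0.42 (Per1). The interaction ran from -0.63 to 0.011 (Dbp) and -0.17 to 0.13 (Npas2). Between the sexes the ranges were -0.15 to 0.055 (Clock), -0.053 to 0.13 (Cry2) and -0.00304 to 0.33 (Nr1d1) averaged over exposures, and -0.046 to 0.26 (Clock) and -0.17 to 0.031 (Npas2) in room air. After hyperoxia they were -0.26 to 0.033 (Npas2), -0.16 to 0.16 (Nr1d1), -0.27 to 0.16 (Nr1d2), -0.29 to 0.13 (Per2) and -0.24 to 0.18 (Per3).

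Of the relations to Arntl, r with TMM was 0.12 for Clock, -0.39 for Nr1d1, -0.24 for Nr1d2 and Per3, -0.09 for Per2 and 0.44 for Npas2. Without the 2 most extreme lungs it was 0.15 for Clock and 0.00707 for Cry2. For Dbp r was -0.55 with TMM, where its permutation p was no longer under 0.05. With background subtracted r was -0.74 for Dbp, which then passed after adjustment (permutation, adjusted p = 0.0241). Other genes passed an unadjusted p under 0.05 under an alternative, with r = 0.61 for Npas2, -0.59 for Nr1d1 and -0.60 for Nr1d2 with background subtracted, and -0.75 for Nr1d1 and -0.64 for Nr1d2 within groups. The clock state of each lung moved by less than the spread between replicates under TMM and background subtraction.

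The animal numbers of the labels were shared by 2 pairs of females and 1 pair of males. The deviations of same-numbered lungs correlated at r = 0.10 (females 2), -0.24 (females 5) and -0.40 (males 1). With so few lungs per group, these values cannot decide whether same-numbered lungs share more than a number. With the replicate block in females, 0 clock genes were called for hyperoxia in females, with 0 genes higher and 1 lower over all genes, and Nr1d2 was at -0.62. Averaged over the sexes Arntl was at -0.019 with the block. Cry1, Npas2 and Dbp had 154 to 208 counts in their lowest lung, and what depth alone adds to their error was not tested.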

Other observations

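Among 35894 other genes with at least 10 counts in every lung, those most like Arntl in log2 CPM over the 12 lungs were H2-Bl (r = 0.91), Fv1 (0.90), Dcst1 (0.89), Gm14246 (0.86) and Ccdc28a (0.85). Those most opposite to Arntl were Mlst8 (r = -0.86), Bhlhb9 (-0.85), Gm44625 (-0.82), Sox3 (-0.80) and Vps35l (-0.80). For Dbp the most like genes were Timm50 (r = 0.93), Pkig (0.89), Pdk3 (0.88), Atg4b (0.86) and Hsd17b10 (0.86). Most opposite to Dbp were Gm12814 (r = -0.94), Cyp3a41a (-0.93), Gm45072 (-0.93), Clec4b2 (-0.92) and Olfr731 (-0.92). These values describe 12 lungs that share library depth and background share, and no test was made of them. None of the 20 is a clock gene of the lists used here, and some of the genes opposite to Dbp had low levels, such as Gm12814 at 1.36 CPM and Olfr731 at 6.504 CPM. Within the loop, Nr1d1 had r = 0.84 with Dbp and Nr1d2 had r = 0.80, and 99.8% of the 35904 well-counted genes had a lower r with Dbp than Nr1d2.

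Wee1, a cell cycle kinase under clock control, was 16.5, 22.4 and 23.4 CPM in hyperoxia males and 13.9, 14.4 and 16.3 CPM in room air males, without overlap (2.73% of all genes), at a log2 fold change of 0.49 (SE 0.17; edgeR, adjusted p = 1.00). Zbtb16, a glucocorticoid target, was 85.4, 148 and 159 CPM in hyperoxia males and 41.7, 62.2 and 87.6 CPM in room air males, a log2 fold change of 1.03 (edgeR, adjusted p = 1.00).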
